A study of Mus musculus with 2 samples.

Results

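The genes described here are 9 RNA-binding splicing regulators of muscle, namely the muscleblind-like genes Mbnl1 and Mbnl2, the CUGBP Elav-like genes Celf1 and Celf2, the polypyrimidine tract binding genes Ptbp1, Ptbp2 and Ptbp3, the quaking gene Qk, and Rbfox2. They were chosen by name, through the mouse symbol of each Ensembl identifier, and were 9 of the 20830 genes in the count table of the 10% aliquot and of the 26997 genes in that of the 90% aliquot. All 9 were detected in both tables and in the isoform table.

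Muscle stem cells (MuSCs), the Pax7-expressing cells that lie quiescent beside muscle fibres and divide after injury, came from mice carrying Pax7creERT2 and the R26-eYFP reporter on a C57BL6 background. From 3 months of age the animals had tamoxifen daily over 5 days, so that the tamoxifen-dependent Cre recombinase, driven by Pax7, switched on YFP, and every cell used was sorted on YFP. Quiescent cells came from uninjured hindlimb muscle and activated cells from muscle taken 72 h after injury with 1.2% barium chloride, and both were loaded together in 1 droplet capture, which was divided into a 10% aliquot read by short and nanopore long reads and a 90% aliquot read by short reads only. The labels do not give the origin of a cell or the number of animals, so the aliquots and their cells were not replicates, and no test between conditions was possible.

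Mbnl proteins bind pyrimidine-flanked YGCY elements and promote adult exon choices in muscle, whereas Celf proteins often act in the opposite direction on the same exons, an antagonism known from myotonic dystrophy. Ptbp proteins bind pyrimidine-rich tracts and mostly repress exons, including muscle and neuronal ones. Qk and Rbfox2 bind short elements in introns and either promote or repress the neighbouring exon depending on position, and both are known to shape splicing during myogenesis.

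Cell barcodes were grouped by their number of unique molecular identifiers (UMIs, each marking 1 captured mRNA molecule). Low-UMI non-cycling barcodes had 3000 to 15000 short-read UMIs and 0 UMIs of the cell cycle genes Rrm2, Top2a and Cdk1, and deep barcodes had at least 20000 UMIs. The 10% aliquot gave 157 low-UMI non-cycling barcodes, with a median of 6729 UMIs, and 79 deep barcodes, with a median of 65499 UMIs. The 90% aliquot gave 1243 and 606, with medians of 4680 and 47106 UMIs. A UMI of at least 1 of the 3 cycling genes was present in 88.6% and 94.2% of the deep barcodes, so depth and cell cycle differed together. Levels are summed UMIs of a gene per 1000000 summed UMIs (CPM) of the population, where a molecule counts once whatever its length, with 95% exact Poisson intervals for levels and exact conditional intervals for folds, which cover counting error only.

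The tables were not independent. All 236 barcodes used from the 10% aliquot were listed in the 90% table as well, 220 of them in the same population, and a median of 0.813 UMIs was counted there per UMI in the 10% table. The 90% values are therefore given also for the 1000 low-UMI and 399 deep barcodes that were absent from the 10% table. The low-UMI barcodes had more of the quiescence markers Calcr, Spry1, Chrdl2, Heyl and Notch3 in sum, at 470 against 21.2 CPM in the 10% aliquot and 568 against 20.3 CPM in the 90% aliquot. The 8 muscle stem cell markers summed to 2566 against 537 CPM and 2694 against 616 CPM. In low-UMI barcodes the largest parts of these sums were Myod1 (1106 against 185 and 1069 against 213 CPM) and Msc (750 against 20.0 and 784 against 11.6 CPM). Pax7 was a small part, at 27.8 against 12.2 and 18.8 against 7.80 CPM. In all, 6 of the 8 were higher in low-UMI barcodes of both tables, Myod1, Msc and Pax7 among them. Itga7 (34.1 against 58.4 and 38.3 against 64.7 CPM) and Cdh15 (28.7 against 57.3 and 37.5 against 57.1 CPM) were lower. Markers of other cell types moved with the populations. The 5 fibro-adipogenic markers summed to 52.0 against 19.2 CPM in the 10% and 88.5 against 19.05 CPM in the 90% aliquot, where Dpt gave 317 against 7 UMIs, while the defining Pdgfra had 0 UMIs in low-UMI barcodes of both. The 5 endothelial markers were at 10.8 against 6.08 and 12.2 against 6.56 CPM, and the 4 pericyte or smooth muscle markers at 0.897 against 0.784 and 6.04 against 3.98 CPM. The summed immune markers were at 37.7 against 48.4 CPM in the 10% aliquot and at 160 against 3.45 CPM in the 90% aliquot, where Lyz2 gave 720 UMIs in low-UMI barcodes and the leukocyte-defining Ptprc gave 5. The part of these cells in the levels below was examined only by leaving out barcodes with at least 3 UMIs of such markers. This cutoff was the same at every depth. It left out 3.18% of low-UMI and 24.1% of deep barcodes in the 10% aliquot, and 5.39% and 16.2% in the 90% aliquot.

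**Figure D1:**
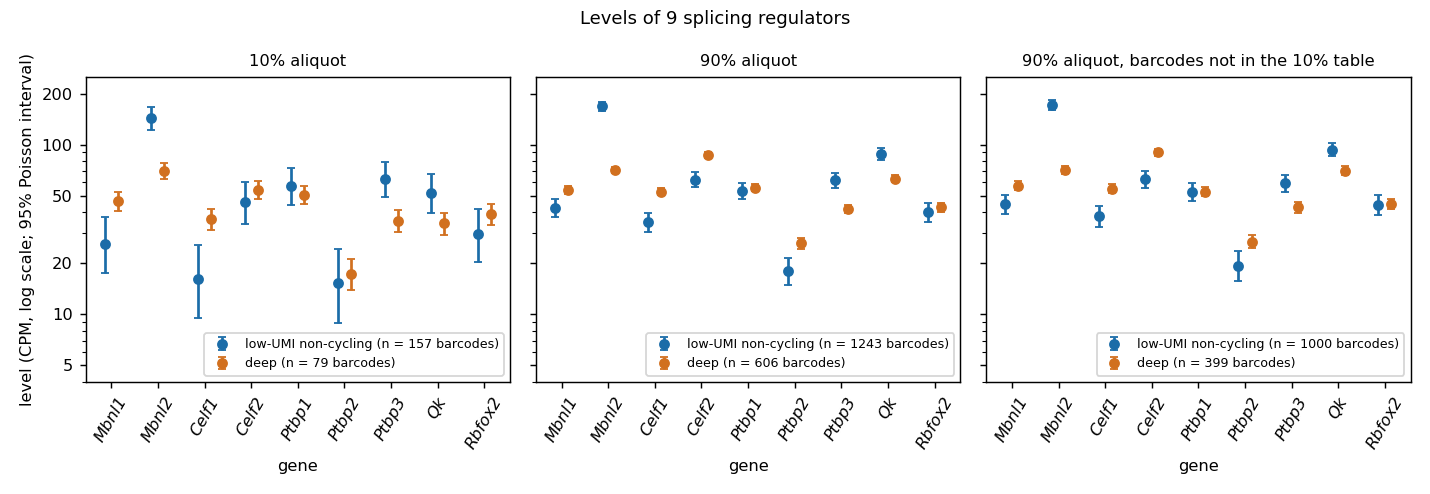
Level in CPM, on a log axis, of each of the 9 genes in low-UMI non-cycling and deep barcodes of the 10% aliquot, the 90% aliquot and the 90% aliquot without shared barcodes, with bars for 95% exact Poisson intervals. Mbnl2 stands apart in low-UMI barcodes, at 143.6, 169 and 171 CPM, above every other gene of the 9.

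Among the 9 genes, Mbnl2 had the highest level in low-UMI barcodes and the largest difference in CPM, though in the 10% aliquot the fold of Celf1 was further from 1. Its level was 143.6 CPM (95% interval 122 to 168) in the 10% aliquot, 169 CPM (159 to 179) in the 90% aliquot and 171 CPM without the shared barcodes. In deep barcodes it was at 69.8 CPM (62.8 to 77.5), 71.1 CPM (68.1 to 74.2) and 71.3 CPM. The low-UMI and deep intervals did not overlap in either table, and the folds were 2.06 (1.70 to 2.48), 2.37 (2.20 to 2.56) and 2.40 (2.20 to 2.61). Mbnl2 was also carried unevenly by the deep barcodes: 1 barcode of 76786 UMIs held 80 of their 356 Mbnl2 UMIs in the 10% aliquot, and without the barcode richest in Mbnl2 in each population the fold was 2.53 there and 2.41 in the 90% aliquot. That barcode held 2 UMIs of immune markers and 0 of the other lists of non-muscle cells. Without barcodes holding at least 3 UMIs of markers of other cell types, the Mbnl2 fold was 1.81 in the 10% aliquot, under the 2-fold mark, and 2.41 in the 90% aliquot. That filter left out a larger share of deep than of low-UMI barcodes, so depth and other cell types cannot be told apart in it.

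The other muscleblind gene went the other way. Mbnl1 was at 26.0 CPM (17.4 to 37.4) in low-UMI and 46.5 CPM in deep barcodes of the 10% aliquot, and at 42.3 and 53.99 CPM in the 90% aliquot. Its folds of 0.560 (0.367 to 0.825) and 0.784 (0.687 to 0.891) were below 1 in both tables. In the 10% aliquot the Mbnl1 log2 fold was 0.55 against the 9 deep barcodes without cycling UMIs. Those held 5 Mbnl1 UMIs, a level of 17.8 CPM (5.78 to 41.6). It was 0.23 after every barcode was thinned at random to 3000 UMIs. The direction therefore did not hold under every setting in that table, though these alternatives rested on fewer UMIs.

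Both Celf genes were lower in low-UMI barcodes, Celf1 by more. Celf1 was at 16.2 CPM (9.57 to 25.5) against 36.3 CPM (31.2 to 41.9) in the 10% aliquot and at 34.9 against 52.8 CPM in the 90% aliquot, folds of 0.445 (0.258 to 0.723) and 0.661 (0.572 to 0.761). Celf2 was at 45.8 against 54.3 CPM and at 62.2 against 86.7 CPM, folds of 0.842 (0.612 to 1.14) and 0.717 (0.644 to 0.797). The interval of Celf2 held 1 in the 10% aliquot, where 51 low-UMI UMIs stood behind the value, but not in the 90% aliquot.

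The Ptbp genes did not move together. Ptbp3, a family member known from blood cells, was at 62.8 CPM (49.0 to 79.4) against 35.5 CPM (30.5 to 41.1) and at 61.7 against 41.7 CPM, folds of 1.77 (1.32 to 2.34) and 1.48 (1.32 to 1.66). Ptbp1, the main form outside the nervous system, was at 57.4 against 50.8 CPM and at 53.3 against 55.9 CPM, and both fold intervals held 1, at 1.13 (0.846 to 1.49) and 0.954 (0.847 to 1.07). Ptbp2, best known from neurons, had the lowest level of the 9 in both populations of each table, though the interval of Celf1 overlapped with its own in low-UMI barcodes of the 10% aliquot. It was at 15.3 against 17.3 CPM and at 18.0 against 26.2 CPM, folds of 0.884 (0.493 to 1.497) and 0.686 (0.559 to 0.835). The 10% fold of Ptbp2 rested on 17 low-UMI UMIs and was 0.389 against deep barcodes without cycling UMIs and 2.01 after thinning to 3000 UMIs.

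Qk, a KH-domain protein of the STAR family, was higher in low-UMI barcodes, at 52.0 against 34.3 CPM and at 88.3 against 63.1 CPM. Its folds were 1.52 (1.11 to 2.05) and 1.40 (1.27 to 1.54). Rbfox2, the most widely expressed Rbfox gene, was at 29.6 against 38.8 CPM and at 39.8 against 42.6 CPM, and its folds of 0.763 (0.511 to 1.11) and 0.934 (0.814 to 1.07) had intervals that held 1. Without the shared barcodes the folds were 1.33 (1.19 to 1.48) for Qk, 1.39 (1.22 to 1.59) for Ptbp3, 0.990 (0.850 to 1.15) for Rbfox2 and 0.691 (0.611 to 0.780) for Celf2, each on the same side of 1 as in the whole 90% table.

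Levels of a gene also differed between tables. Qk was 1.70 times higher in the 90% than in the 10% table in low-UMI barcodes and 1.84 times higher in deep barcodes, and Celf1 was 2.16 and 1.45 times higher. In the 236 shared barcodes alone, Mbnl2 was at 83.0 and 83.1 CPM in the 10% and 90% tables, whereas Qk was at 37.5 and 44.1 CPM and Celf2 at 52.8 and 66.6 CPM. Folds are therefore compared within a table only.

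**Figure D2:**
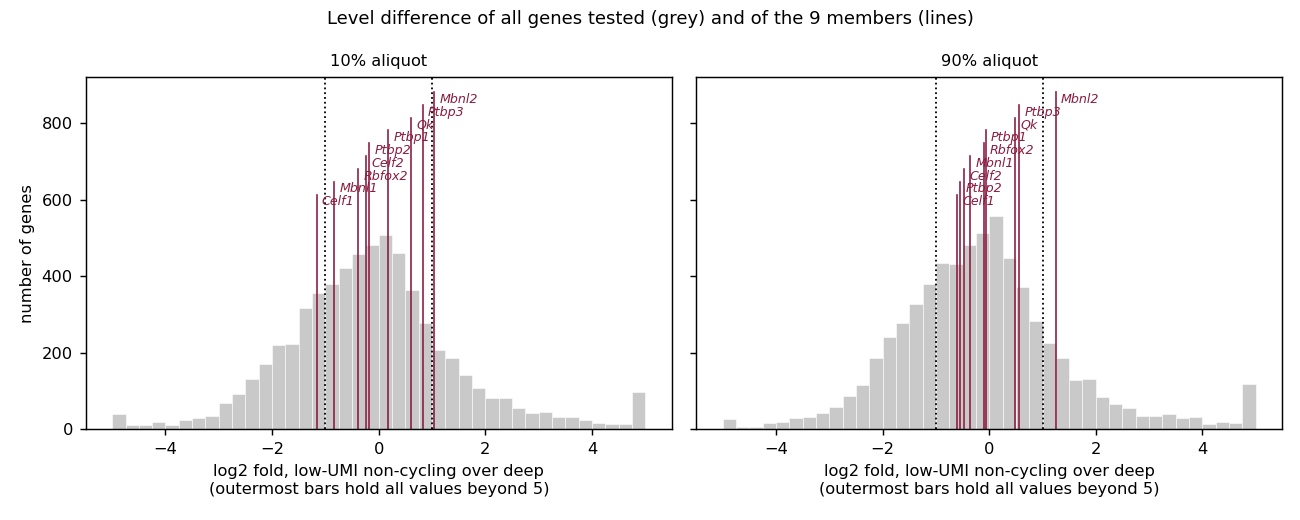
Number of genes (grey bars) by log2 fold of low-UMI non-cycling over deep barcodes in the 10% and 90% aliquots, for all genes with a mean level of at least 10 CPM, with the 9 genes as red lines whose height has no meaning and dotted lines at 2-fold. Mbnl2, at log2 folds of 1.04 and 1.25, exceeded 81.8% and 84.9% of genes, and the other genes lie between the dotted lines except Celf1 in the 10% aliquot.

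Differences of this size were common. Of the genes with at least 10 CPM averaged over the populations, 18.8% were at least 2-fold higher and 27.9% at least 2-fold lower in low-UMI barcodes of the 10% aliquot, and 1 of the 9 genes (Mbnl2) and 1 (Celf1) were. In the 90% aliquot the shares of all genes were 18.4% and 28.2%, and Mbnl2 was the only gene of the 9 at least 2-fold higher and 0 were 2-fold lower; without the shared barcodes they were 18.4% and 28.1%, again with Mbnl2 alone. The 9 genes thus passed the 2-fold mark no more often than all genes did. The median log2 fold of the 9 was -0.18 and -0.10, beside -0.18 and -0.20 for all genes tested. Scaling by median of ratios instead of total UMIs lowered every log2 fold by 0.11 in the 10% and 0.07 in the 90% aliquot, which took Mbnl2 to 1.90-fold in the 10% aliquot, under the 2-fold mark.

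**Figure D3:**
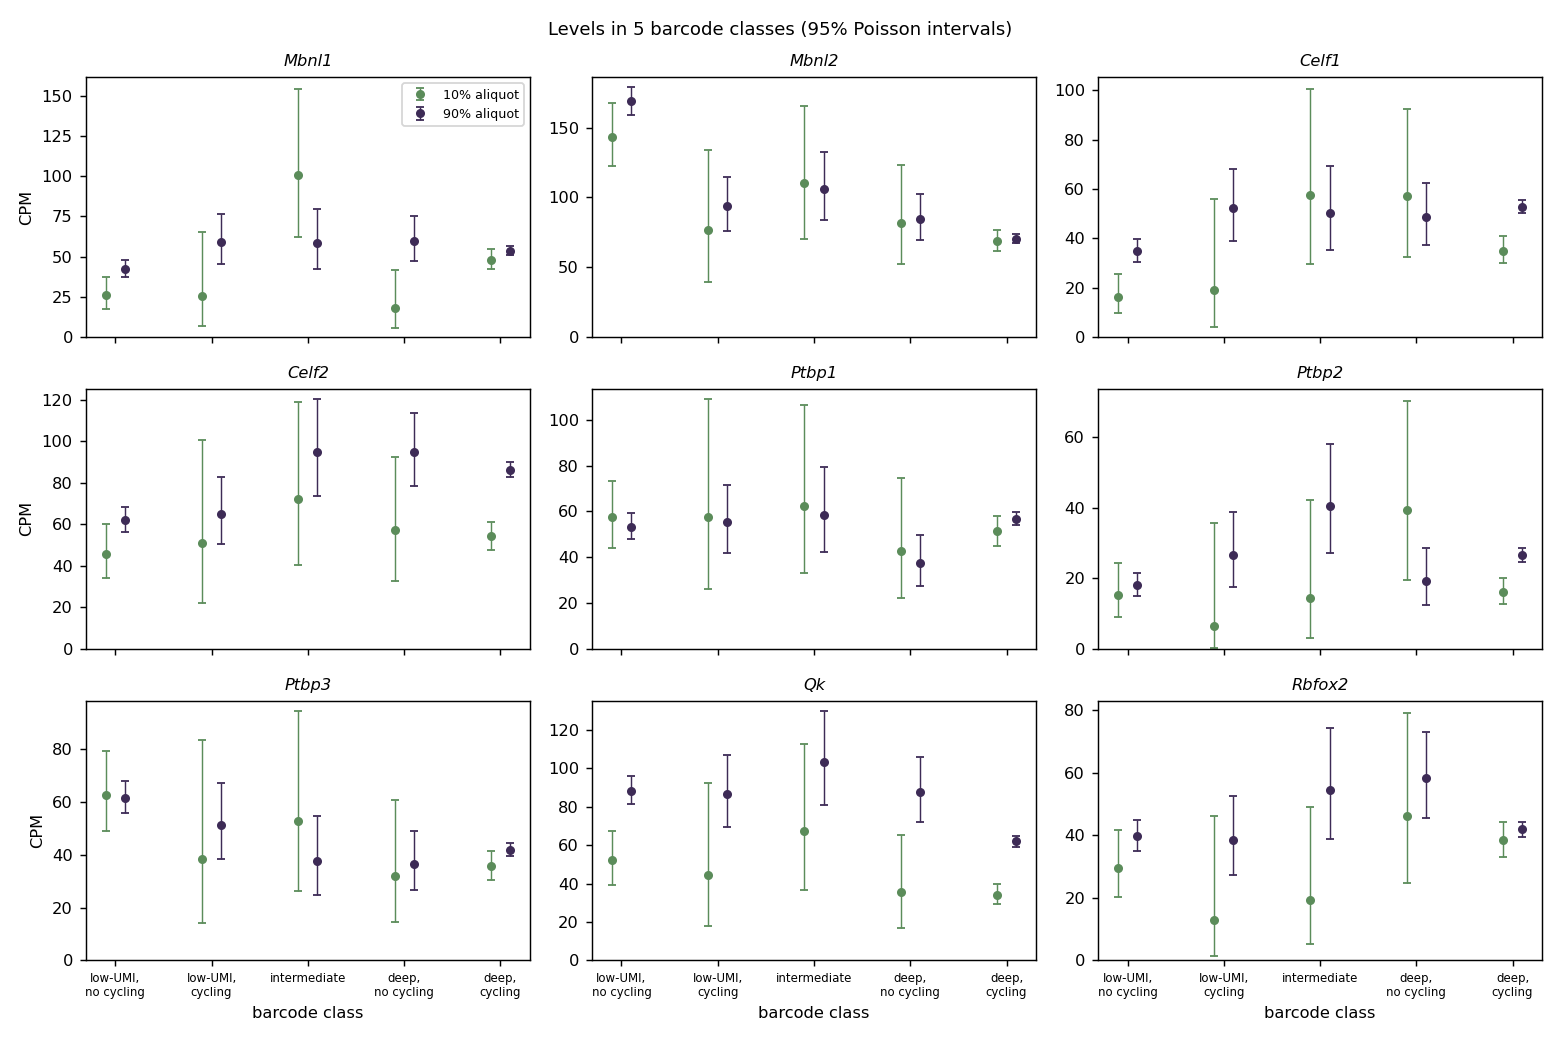
Level in CPM of each of the 9 genes in 5 classes of barcodes set by UMI number and cycling UMIs in each aliquot, with 95% exact Poisson intervals. In the 90% aliquot Mbnl2 is at 169 CPM in low-UMI barcodes without cycling UMIs and at 93.7 CPM in those with them, and all deeper classes lie at 70.5 to 106 CPM.

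Depth and cycling UMIs were set beside each other in 5 classes of barcodes of the 90% aliquot. Among low-UMI barcodes, Mbnl2 was at 169 CPM in the 1243 without a cycling UMI and at 93.7 CPM (75.8 to 114) in the 148 with one, a fold of 1.80 (1.46 to 2.25). Mbnl1 and Celf1 differed the opposite way within the same range of depth, with folds of 0.715 (0.539 to 0.962) and 0.667 (0.493 to 0.918). In the 10% aliquot, where the low-UMI cycling class gave 12 UMIs of Mbnl2, 4 of Mbnl1 and 3 of Celf1, the same contrast was 1.87 (1.04 to 3.70) for Mbnl2, 1.02 (0.357 to 3.99) for Mbnl1 and 0.842 (0.246 to 4.46) for Celf1. In the 90% aliquot Qk was at 88.3 and 86.8 CPM in these classes, a fold of 1.02 (0.812 to 1.29). Among cycling barcodes Qk was higher in low-UMI than in deep ones, a fold of 1.40 (1.12 to 1.73). The same contrast by depth was 1.33 (1.07 to 1.63) for Mbnl2 and 0.754 (0.581 to 0.962) for Celf2. The intervals of the other members held 1 there, as did those of all 9 genes in the 10% aliquot. In the 35 deep barcodes without a cycling UMI, Qk was at 87.7 CPM and Rbfox2 at 58.2 CPM. Both were above the 62.0 and 42.0 CPM of the 571 deep cycling barcodes, with folds of 1.41 (1.16 to 1.72) and 1.39 (1.08 to 1.76). For Mbnl2 this contrast among deep barcodes was 1.20 (0.976 to 1.46), and 1.19 (0.741 to 1.81) in the 10% aliquot, and both intervals held 1. Ptbp1 was lower in deep barcodes without a cycling UMI, at 37.5 against 56.7 CPM, a fold of 0.661 (0.483 to 0.883). Of these 35 barcodes 34.3% held at least 3 UMIs of markers of other cell types, and their median was 36428 UMIs. Of the 571 deep cycling barcodes 15.1% did, with a median of 47930 UMIs. Depth, other cell types and cycling UMIs therefore cannot be told apart in this contrast. In the 10% aliquot the same contrast, from 9 deep barcodes without a cycling UMI, was 1.04 (0.490 to 1.96) for Qk and 1.21 (0.630 to 2.11) for Rbfox2. It was 0.834 (0.425 to 1.48) for Ptbp1. These were on the same side of 1 as in the 90% aliquot, but each interval held 1. The 9 barcodes gave 0.370 (0.119 to 0.876) for Mbnl1 from 5 UMIs and 2.45 (1.18 to 4.64) for Ptbp2 from 11 UMIs, beside 1.11 and 0.721 in the 90% aliquot. A low-UMI barcode without a cycling UMI can still belong to a cycling cell, since fewer molecules were read from it.

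The genes whose class means were most like those of each member were listed over the 10 means of 5 classes in 2 aliquots, among 2244 genes of at least 50 CPM, as a description of points that share barcodes. Mbnl2 was most like Gm15427, Rps4x and Gadd45b (Pearson correlation 0.961, 0.947 and 0.944). Ptbp3 was most like Mgat2, Gadd45b and Eif5 (0.949, 0.921 and 0.921). The closest gene to Qk was Sdcbp (0.947), to Rbfox2 Spcs2 (0.954), to Celf1 P4hb (0.928) and to Mbnl1 Psmd4 (0.873).

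The long reads of the 10% aliquot gave a further measure of level in the same 157 and 79 barcodes. In CPM of long-read UMIs, Mbnl2 was at 370 against 141, a fold of 2.63 (2.34 to 2.96), and Qk at 94.0 against 41.1, a fold of 2.29 (1.82 to 2.88). Of all genes tested, 21.1% were at least 2-fold higher and 24.9% at least 2-fold lower by long reads, beside 2 of the 9 genes and 0. Ptbp1 was higher by this measure, at 166 against 114 CPM and a fold of 1.45 (1.24 to 1.70). The short-read fold of 1.13 (0.846 to 1.49) in these barcodes had an interval that held 1 and also 1.45. Celf1 and Rbfox2 were lower, with folds of 0.704 (0.525 to 0.931) and 0.739 (0.596 to 0.909). Long reads counted 3.19 UMIs of Mbnl2 per short-read UMI in low-UMI barcodes and 1.83 in deep ones, beside 1.24 and 0.908 over all genes, so the gain with long reads was itself uneven between populations.

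Long-read UMIs were counted on 8 to 33 isoforms per gene. Starts and ends below are those of the isoform to which a molecule was assigned, not those of its read. Reads did not need to cover the whole isoform, and the authors report a lower percentage of full-length reads for longer transcripts. The part of truncated molecules in these sites was not tested. Few of the counted isoforms were identical to a reference transcript: 3 isoforms of Mbnl2 and 1 each of Celf2, Ptbp3 and Rbfox2 carried a reference name. Isoforms were grouped by starts, or by ends, at most 100 bases apart, and the share of a gene's long-read UMIs at each site was compared. Differences of at least 20 percentage points in a start site were found in 6.74% of 3265 genes with at least 50 long-read UMIs in each population, and in 4 of the 8 of the 9 genes that could be examined, namely Mbnl2, Celf1, Rbfox2 and Qk. For single isoforms the background was 17.3% and 1 of 8 genes (Qk) passed, and for end sites it was 13.6% and 2 of 8 (Celf1 and Qk). Ptbp2, with 42 long-read UMIs in low-UMI barcodes, was below the minimum. UMIs of a gene gathered in few barcodes, and intervals of shares treat them as independent, so numbers of barcodes are given. Where each barcode is counted once, a barcode with UMIs at several sites or isoforms counts at each of them. Such shares therefore also depend on depth.

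The isoform starts of Mbnl2 (chr14:120275669-120431697, plus strand, GRCm38, Gencode vM21) had different shares in the populations. Molecules starting at 120275707, in an untranslated exon and at the start of transcript Mbnl2-206, made up 83.8% of its UMIs in low-UMI barcodes (428 of 511, in 82 barcodes) and 52.4% in deep barcodes (341 of 651, in 58 barcodes), a difference of 31.4 points (95% Newcombe interval 26.2 to 36.2). Molecules starting at 120306452, the start of Mbnl2-208, made up 3.91% (20 UMIs in 15 barcodes) and 26.3% (171 UMIs in 33 barcodes), a difference of -22.4 points (-26.1 to -18.5), or -11.4 points with each barcode counted once. The first start difference exceeded that of 98.3% of the genes examined, and it was 33.6 points without the barcode richest in Mbnl2 in each population and 23.5 points with each barcode counted once. The reference-named isoforms ran the same way: Mbnl2-204, which begins at the first site, had 61 and 22 UMIs, and Mbnl2-208 had 0 and 28 UMIs. At the other end, molecules ending at 120429989 made up 34.1% and 15.5%, a difference of 18.5 points (13.6 to 23.5), and those ending at 120431697 made up 15.9% and 24.3%. The 250 bases before the first start in RefSeq (GRCm38.p6, chr14:120275419-120275668, plus strand) are shown, with the 1 GC box GGGCGG in capitals. They are shown because isoforms with this start held a larger share in low-UMI barcodes.
Mbnl2 upstream: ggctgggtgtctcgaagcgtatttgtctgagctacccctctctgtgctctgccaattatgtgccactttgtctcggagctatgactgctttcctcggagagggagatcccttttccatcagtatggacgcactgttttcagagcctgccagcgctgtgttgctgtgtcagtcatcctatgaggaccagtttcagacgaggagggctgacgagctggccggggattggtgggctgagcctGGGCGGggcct
Searched on both strands, the window held 0 copies of TATAAA and 0 of the E-box CANNTG. Of 32851 windows of the same length before RefSeq starts, 32.7% held GGGCGG, 12.4% TATAAA and 66.2% CANNTG. The match is a description of letters and not of a binding site.

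**Figure D4:**
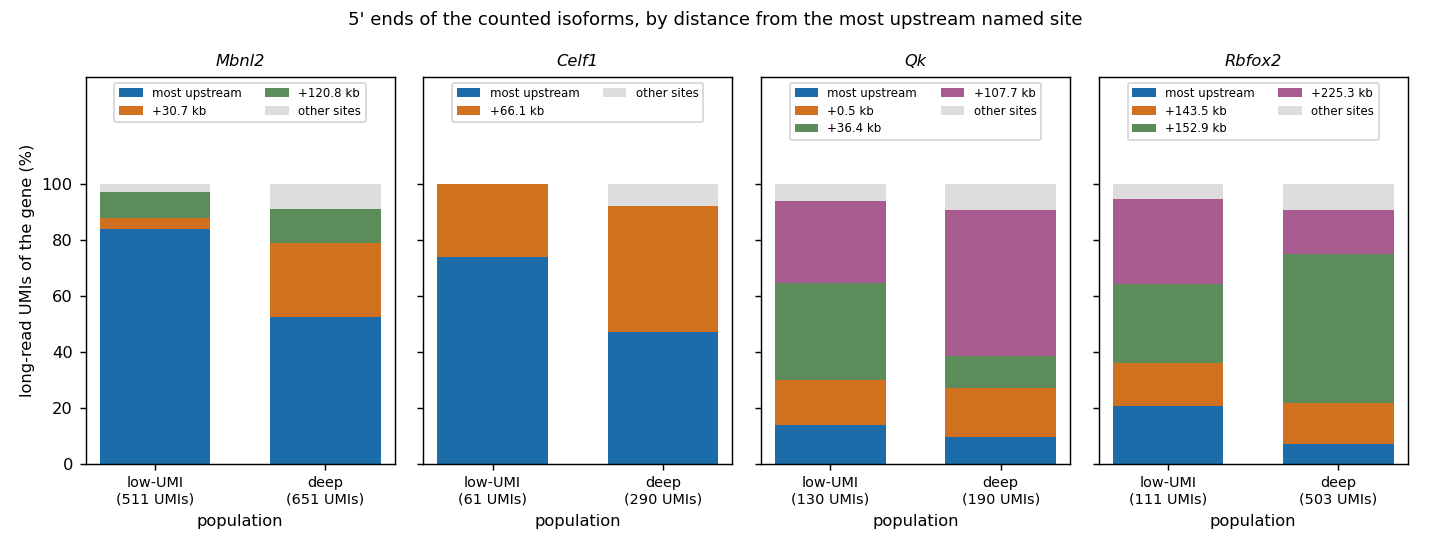
Stacked bars of the percent of a gene's long-read UMIs at each start site, for Mbnl2, Celf1, Qk and Rbfox2 in low-UMI non-cycling and deep barcodes of the 10% aliquot, with colours for sites by their distance in kb from the most upstream named site and grey for other sites. For Mbnl2 the most upstream start (blue) holds 83.8% against 52.4% and the next (orange) 3.91% against 26.3%.

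Celf1 (chr2:90940382-91019497, plus strand) started at 90940485, 27 bases from the start of Celf1-210, in 73.8% of its 61 low-UMI UMIs (16 barcodes) and 46.9% of its 290 deep UMIs (38 barcodes), a difference of 26.9 points (13.4 to 37.8). Molecules starting inside a coding exon at 91006620 made up 26.2% and 45.2%, a difference of -18.9 points (-30.0 to -5.5). A Celf1 end within an intron, at 91007439, held 31.1% and 6.2% of UMIs, but its 19 low-UMI UMIs came from 5 barcodes. For Celf1 the low-UMI shares therefore rested on few barcodes.

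Qk (chr17:10202601-10319854, minus strand) started at 10282983, in an intron and 50 bases from the start of Qk-205, in 34.6% of low-UMI UMIs (45 in 16 barcodes) and 11.6% of deep UMIs (22 in 11 barcodes), a difference of 23.0 points (13.7 to 32.4), or 14.5 points with each barcode counted once. One isoform from this start, ending at 10215376, held 26.2% and 3.7%, with 34 UMIs in 12 barcodes and 7 UMIs in 3, and the difference was 18.0 points with each barcode counted once. Counted so, no start or isoform of Qk passed 20 points, since its largest start difference was 17.4 points in size. Molecules of the last part of the gene, starting at 10211690 in an untranslated exon with no annotated start nearby, made up 29.2% and 52.1%. Isoforms of the intronic start thus had a larger share of Qk UMIs in low-UMI barcodes, and short 3′ isoforms a larger share in deep ones.

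Rbfox2 (chr15:77078990-77307004, minus strand) started at 77153754, the start of transcript Rbfox2-209, in 27.9% of low-UMI UMIs (31 in 15 barcodes) and 53.3% of deep UMIs (268 in 48 barcodes), a difference of -25.4 points (-34.0 to -15.4). The far upstream start at 77306605 held 20.7% and 7.0%, but its 23 low-UMI UMIs came from 4 barcodes. Counting each barcode once per site, the difference at 77153754 was 1.80 points, so the result depended on how UMIs were weighed. The 48 deep barcodes with this start were among 58 with an Rbfox2 UMI, and the 15 low-UMI ones among 37. Molecules starting at 77081338 in the 3′ untranslated region made up 30.6% and 15.7%.

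For the remaining genes that could be examined the shares of UMIs differed by less than 20 points. Ptbp1 (chr10:79854427-79864771, plus strand) started at 79854667 in 80.3% and 70.7% of UMIs and ended at 79864359 in 92.6% and 99.1%. Ptbp3 (chr4:59471868-59549364, minus strand) started at 59549284 in 75.9% and 70.6%, but with each barcode counted once its largest start difference was 25.7 points, in 15 and 32 barcodes with a Ptbp3 UMI. Celf2 (chr2:6539694-7509563, minus strand) started at 6872501 in 56.5% and 42.4%, and an end of Mbnl1 (chr3:60472830-60629750, plus strand) at 60617478 held 24.2% and 8.4%, with 16 UMIs in 7 barcodes and 23 in 9. Ptbp2 lies at chr3:119718742-119784466 on the minus strand.

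Exons could be read only from the isoform annotation deposited with the counts, which gives supporting reads over all barcodes together, not per population. Each share below is the number of supporting reads of isoforms with the exon among those of isoforms that hold it or skip it. These isoforms are not those of the count table: few counted isoforms had an entry under their name in the annotation, from 0 of 8 for Ptbp3 and 1 of 14 for Celf1 to 16 of 26 for Mbnl2, so the exon shares do not describe the counted isoforms. Several of the alternative exons of these genes are themselves known targets of the same families, so their sequences are shown, in transcript sense from Gencode vM21 transcripts (GRCm38).

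**Figure D5:**
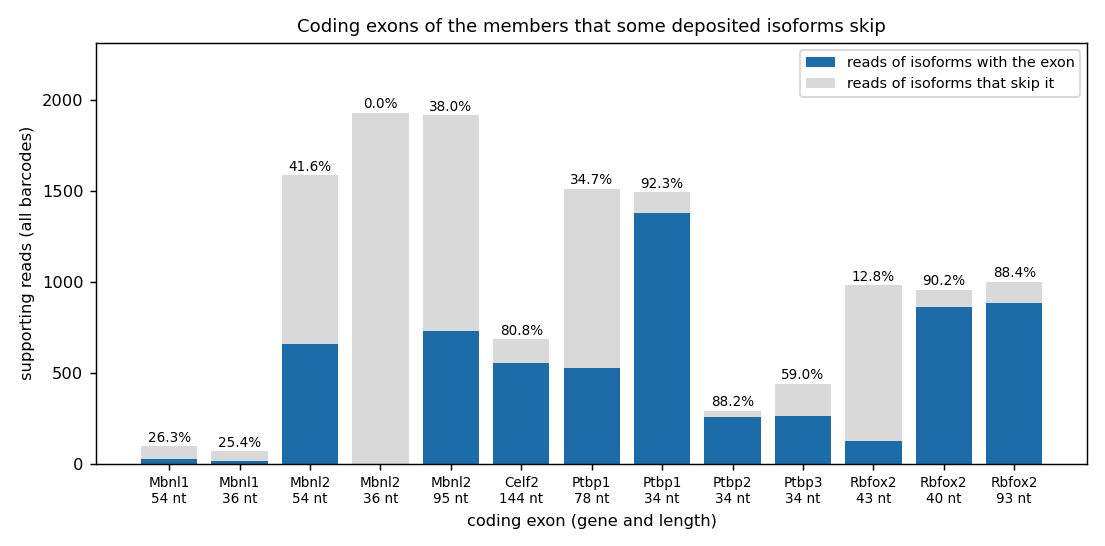
Supporting reads, over all barcodes of the 10% aliquot, of deposited isoforms with (blue) and without (grey) alternative exons of 7 of the 9 genes, stacked, with the percent that include the exon above each bar. The Ptbp1 and Ptbp2 34-base exons are at 92.3% and 88.2%, and the Mbnl1 and Mbnl2 54-base exons at 26.3% and 41.6%. The 34-base exon of Ptbp3 is a different exon, near the 5′ end of its gene.

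The 54-base exon of the muscleblind genes takes part in nuclear localisation of the protein and is known to be repressed by Mbnl proteins. It was included in 25 of 95 reads of Mbnl1 (26.3%) and in 660 of 1586 reads of Mbnl2 (41.6%). The exons lie at chr3:60614683-60614736 and chr14:120395712-120395765, both on the plus strand, and were identical at 46 of 54 positions (85.2%), with the positions that differ in capitals.
Mbnl1 54-base exon: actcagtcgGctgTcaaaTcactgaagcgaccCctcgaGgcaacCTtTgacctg
Mbnl2 54-base exon: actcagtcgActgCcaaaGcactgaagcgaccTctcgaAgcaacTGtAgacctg
The exon of Mbnl2 was seen both with and without a 95-base exon further on, whose length is not a multiple of 3: 180 reads held both exons, 480 the 54-base exon alone, 548 the 95-base exon alone and 335 neither. The 95-base exon was included in 728 of 1914 reads (38.0%). In Mbnl1 the 54-base and a 36-base exon were found together in 0 of 67 reads that spanned both, each alone in 25 and 17 reads. The 36-base exon of Mbnl2 was in 0 of 1928 reads, but isoforms with few reads had been dropped before the annotation was written.

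Ptbp1 and Ptbp2 each carry a 34-base exon whose skipping shifts the frame and is known to lead to decay of the mRNA, and Ptbp1 protein is known to promote that skipping. It was included in 1377 of 1492 reads of Ptbp1 (92.3%) and in 255 of 289 reads of Ptbp2 (88.2%). The exons lie at chr10:79862014-79862047 (plus strand) and chr3:119724612-119724645 (minus strand), and were identical at 26 of 34 positions (76.5%), with the positions that differ in capitals.
Ptbp1 34-base exon: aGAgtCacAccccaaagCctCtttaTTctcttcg
Ptbp2 34-base exon: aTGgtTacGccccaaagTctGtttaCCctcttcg
A 78-base exon of Ptbp1, which lengthens the linker between RNA-binding domains and is known to strengthen repression by the protein, was in 524 of 1511 reads (34.7%). It lies at chr10:79860117-79860194 on the plus strand, keeps the frame, and is shown because it separates the main Ptbp1 proteins.
Ptbp1 78-base exon: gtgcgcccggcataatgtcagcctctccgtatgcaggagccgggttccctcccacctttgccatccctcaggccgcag
Reads with this exon mostly held the 34-base exon too: 498 had both and 26 the 78-base exon alone, beside 879 with the 34-base exon alone and 81 with neither. A 34-base exon of Ptbp3 was in 259 of 439 reads (59.0%). It lies near the 5′ end of the gene, at chr4:59546149-59546182 on the minus strand. Its sequence is unlike that of the 34-base exons of Ptbp1 and Ptbp2, so it is a different exon. An alternative exon of Celf2 was in 552 of 683 reads (80.8%).

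Rbfox2 carries a 43-base and a 40-base exon that are known as alternatives to each other, the first used in differentiated muscle. The 43-base exon was in 126 of 981 reads (12.8%) and the 40-base exon in 861 of 955 (90.2%). The exons lie at chr15:77091812-77091854 and chr15:77094451-77094490 on the minus strand, and are shown because each gives the protein a different stretch.
Rbfox2 43-base exon: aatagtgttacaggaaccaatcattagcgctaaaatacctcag
Rbfox2 40-base exon: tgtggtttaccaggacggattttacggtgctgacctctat
Of 955 reads whose isoforms held or skipped each exon, 815 held the 40-base exon alone, 54 the 43-base exon alone, 46 both and 40 neither. A 93-base exon, part of the RNA-binding domain, was in 884 of 1000 reads (88.4%). The reference transcript Rbfox2-209, which has the 40-base and the 93-base exon and lacks the 43-base exon, had 7 of 111 UMIs in low-UMI barcodes (6.3%) and 82 of 503 in deep barcodes (16.3%).

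Other splicing regulators were taken from a list of 36 genes, of which 16 reached the minimum level. In either aliquot, 2 were at least 2-fold higher and 4 at least 2-fold lower in low-UMI barcodes, against the same backgrounds of 18.8% and 27.9% in the 10% and 18.4% and 28.2% in the 90% aliquot. The muscle regulators Rbm24, which acts in muscle differentiation, and Rbm38, its close relative, were lower, at 5.38 against 18.2 and 17.1 against 47.3 CPM in the 10% aliquot. Celf4 (9.87 against 29.2 CPM) and Rbpms2 (4.49 against 28.6 CPM) were lower as well, and the same 4 genes were lower in the 90% aliquot, with log2 folds of -2.82, -1.34, -2.33 and -4.17. Rbm39, a general splicing factor, was higher in both, at 747 against 308 and 753 against 258 CPM. The other higher gene was Zfp638 in the 10% aliquot (log2 fold 1.66) and Rbm5 in the 90% aliquot (1.08).

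Of 28 genes known as targets of these families, 16 reached the minimum level in the 10% and 15 in the 90% aliquot, and 3 and 1 were at least 2-fold higher while 7 and 8 were at least 2-fold lower, beside 18.8% and 18.4% of all genes higher and 27.9% and 28.2% lower. The median log2 fold was -0.80 and -1.16, beside -0.18 and -0.20 for all genes. The lower targets included Tpm1, a tropomyosin, at 65.5 against 597 CPM in the 10% and 80.1 against 666 CPM in the 90% aliquot, and Pkm, a pyruvate kinase, at 173 against 572 and 187 against 710 CPM. Vldlr, a lipoprotein receptor, was the 1 target higher in both, at 33.2 against 5.10 and 34.3 against 5.09 CPM. Of the 9 targets with enough long-read UMIs in both populations, 0 had an isoform or a start site whose share differed by at least 20 points, and 1 (Pdlim5) had such an end site, beside 17.3%, 6.74% and 13.6% of all genes.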

How the data were processed

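Values were the UMI counts deposited by the authors, who counted genes with scPipe in each aliquot and isoforms with FLAMES in the long reads of the 10% aliquot, on mm10 with Gencode vM24. The submitters' processing notes list Cell Ranger 1.3 and minimap2 2.17 and the build GRCm38.p6. FLAMES dropped isoforms with weak full-length support and reads covering little of a transcript, so rare isoforms are missing. Counts were summed over barcodes of a population with Python 3.11.15, NumPy 2.4.6, SciPy 1.17.1 and pandas 2.3.3, and the scripts were tested on simulated data. Confidence intervals were 95% exact Poisson for levels, conditional binomial for folds, Clopper-Pearson for shares and Newcombe for differences. Genes needed a mean of 10 CPM, isoforms and sites 50 long-read UMIs per population. The tables held 6772259 UMIs in 1991 barcodes and 39044129 in 3001, and the populations used 1114508 and 5099209 (10%) and 6452314 and 29875734 (90%). Long reads gave 1382498 and 4628237. Cells were not clustered and no doublet caller was run. All 9 genes are described, isoforms and sites with at least 10% of a gene's UMIs were eligible to be named, and regulators were named when 2-fold apart in 1 direction in both tables. Zfp638, Rbm5 and the target genes were named after their values were seen. Members and lists were chosen with earlier results of these data known. RefSeq windows matched 7 of the 9 genes. The result of 1 list of markers of another cell type is not reported here.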

Additional observations from a re-analysis of the deposited data

How the results depend on the processing

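No paired analysis was possible because the aliquots were parts of 1 capture and each group held 1 sample. Over the alternatives the fold of Mbnl2 ranged from 1.75 to 3.30 in the 10% and from 1.998 to 2.46 in the 90% aliquot, that of Ptbp3 from 1.33 to 1.959 and 1.39 to 1.68, that of Qk from 1.40 to 2.29 and 1.01 to 1.56, that of Celf1 from 0.283 to 0.704 and 0.632 to 0.717, that of Celf2 from 0.598 to 0.901 and 0.655 to 0.747, that of Rbfox2 from 0.639 to 0.793 and 0.685 to 0.990, that of Mbnl1 from 0.515 to 1.46 and 0.708 to 0.836, that of Ptbp1 from 0.968 to 1.45 and 0.910 to 1.42, and that of Ptbp2 from 0.389 to 2.01 and 0.600 to 0.940. The number of the 9 genes at least 2-fold apart in the 10% aliquot was 1 instead of 2 when cycling low-UMI barcodes were added, with median-of-ratios scaling, and when barcodes with markers of other cell types were left out. Against deep barcodes without cycling UMIs the 2 genes were Celf1 (0.283) and Ptbp2 (0.389), with Mbnl2 at 1.75. By long reads they were Mbnl2 and Qk instead of Mbnl2 and Celf1. In the 90% aliquot the number was 0 instead of 1 against deep barcodes without cycling UMIs, where Mbnl2 was 1.998-fold higher. The number with an isoform difference of at least 20 points was 1, but 0 with each barcode counted once or deep barcodes without cycling UMIs, and 2 with low-UMI barcodes of at least 5000 UMIs or without marker barcodes. For start sites it was 4, but 3 at 100 UMIs, 3 with each barcode counted once, when Qk and Rbfox2 left and Ptbp3 entered beside Mbnl2 and Celf1, and 1 with deep barcodes without cycling UMIs, of which 9 were left. For end sites it was 2, but 1 at 100 UMIs or counting each barcode once, 0 with deep barcodes without cycling UMIs and 4 without marker barcodes. At 100 UMIs only Mbnl2, Ptbp1, Qk and Rbfox2 could be examined. Celf1, with 61 long-read UMIs in low-UMI barcodes, was then below the minimum, so its start and end sites were no longer counted. At 100 UMIs the background fell from 17.3% to 10.6% for isoforms and from 6.74% to 4.17% for start sites. For end sites and for the other settings no share over all genes is given here. The counts of members under those settings therefore cannot be read against a background. The direction turned for the Mbnl1 log2 fold in the 10% aliquot, 0.55 against deep barcodes without cycling UMIs and 0.23 after thinning to 3000 UMIs, for those of Ptbp2 (1.01) and Ptbp1 (-0.05) in the 10% aliquot after thinning and of Ptbp1 in the 90% aliquot (0.51, deep barcodes without cycling UMIs), whose main intervals held 1, and in share differences that were small or rested on few barcodes. These were -1.09, -1.44 and -0.803 points for a Mbnl1 isoform (low-UMI barcodes of at least 5000 UMIs, without marker barcodes, without the top barcode), 0.423 points for the Celf1 start 91006620 and -4.44, 2.13 and 3.18 points for 2 Ptbp1 isoforms and Rbfox2-209 (deep barcodes without cycling UMIs), -4.14 and -2.14 points for a Ptbp2 isoform (without the top barcode, each barcode once) and 1.80 points for the Rbfox2 start 77153754 (each barcode once). The causes were not tested. Grouping of sites, counting each barcode once and leaving out the top barcode for shares were chosen after seeing the data. No 10% value without shared barcodes could be given, since all were shared.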
